A study of Homo sapiens with 12 samples.

Results

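Autophagy carries proteins and organelles to the lysosome for breakdown. ULK kinases start the process, WIPI and ATG2 proteins extend the membrane of the forming autophagosome, and the ATG16L1 complex attaches ATG8 proteins such as MAP1LC3B and GABARAPL1 to that membrane. ATG4 proteases prepare and release these ATG8 proteins, and receptors such as SQSTM1 bind both ATG8 proteins and the cargo. DRAM1, a membrane protein of lysosomes, links p53 to this pathway. The RNA levels, intronic reads and splicing of 10 such genes are described here, namely ULK1, ULK2, WIPI1, ATG2A, ATG16L1, MAP1LC3B, GABARAPL1, ATG4A, SQSTM1 and DRAM1. They were selected by symbol from the 26334 genes in the count tables.

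The cells were A549, a line from a human lung adenocarcinoma that carries wild-type p53. They were infected with lentivirus encoding a control shRNA (shControl) or 1 shRNA against RNF113A (shRNF113A), a RING finger protein of the spliceosome, and were selected with puromycin at 1 µg/ml over 4 days. Cells of each kind were left untreated or received Cisplatin, a platinum drug that crosslinks DNA, at 25 µg/ml during 20 h according to the labels. Each of the 4 groups held 3 biological replicates, which gave 12 libraries of stranded mRNA sequencing. All groups thus carry a lentivirus and were under puromycin, and the depleted cells rest on a single shRNA, so that an effect of its sequence on other transcripts cannot be told apart from RNF113A depletion.

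The libraries held between 33859097 and 56071514 read pairs, of which 26220526 to 45721152 were assigned to genes, with the lowest totals in the depleted cells under Cisplatin. RNF113A itself was at 20.3, 19.5 and 19.8 CPM (read counts scaled to the library total) in untreated control cells and at 15.3, 15.8 and 16.8 CPM in untreated depleted cells. This fall of 0.31 on the log2 scale passed the test (SE 0.09, edgeR adjusted p = 0.0247), while under Cisplatin the difference was -0.14 (SE 0.09, adjusted p = 0.233) and the groups overlapped. The depletion was modest at the RNA level in these libraries. The control cultures numbered 2, untreated and under Cisplatin, lay apart from the other control libraries (mean distance to their group 0.404 and 0.349 log2 units, against 0.236 to 0.282), and the members' expression calls within each shRNA or treatment, and for the interaction, are given both ways where they change without them. Of 15 markers of epithelial, blood, endothelial and fibroblast cells, 5 had fewer than 15 reads in every library, namely PTPRC, CD3E, PECAM1, VWF and COL1A2, and the summed epithelial markers were lower under Cisplatin (4614 to 6596 against 8521 to 15000 CPM in control cells). The summed blood cell markers were at 30.6 to 41.3 CPM in control and 46.5 to 76.7 CPM in depleted cells. That sum was mostly CD68, while PTPRC and CD3E had at most 5 and 1 reads in any library. It thus does not show blood cells in this culture of a single line. The part of these marker shifts in the results was not tested. In such bulk RNA, fewer cells of a kind and less RNA per cell cannot be told apart.

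Over all 4 groups together, Cisplatin changed most of the 10 genes and RNF113A depletion few of them, which was near or below the shares of all genes. The mean levels of ATG2A, MAP1LC3B, ATG4A and ULK1 were highest in treated depleted cells. So were those of GABARAPL1 and SQSTM1, which passed no comparison with all libraries. The share of all genes with their highest mean there was not counted. In a model with 1 term for the drug and 1 for the depletion, 5 genes were higher under Cisplatin (DRAM1, ATG2A, MAP1LC3B, ATG4A and ULK1) and 2 were lower (ATG16L1 and ULK2) at an edgeR adjusted p under 0.05, against 66.8% of all 15352 genes tested (34.8% higher and 32.1% lower). With the further demand of a 2-fold change, 1 of 10 genes passed, DRAM1, against 21.5% of all genes. The median log2 change of the 10 genes was 0.30, beside 0.03 over all genes. For the depletion term, ATG2A and MAP1LC3B were higher and no gene was lower, so that 2 of 10 passed against 47.5% of all genes (23.5% higher and 24% lower), and the medians were 0.11 and near 0 (-0.002). Without the control cultures numbered 2 the counts were 8 of 10 for Cisplatin (71.9% of all genes) and 4 of 10 for depletion (54.5%), where GABARAPL1 joined both and ATG16L1 the latter. All these shares lay near or below those of the other genes.

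Within each condition the picture was uneven. In control cells Cisplatin changed 3 of 10 genes (DRAM1 and ATG2A higher, ATG16L1 lower), against 55% of all genes (28% higher and 27% lower). In depleted cells it changed 5 of 10, all of them upward (DRAM1, ATG2A, ATG4A, MAP1LC3B and ULK1), against 60.2% of all genes and 32.4% in that direction. Depletion in untreated cells changed none of the 10 by edgeR, where 1 gene, ATG16L1, had an unadjusted p under 0.05, and DESeq2 called that 1 gene, against 27.4% of all genes by edgeR. Depletion under Cisplatin changed 4 of 10, with ATG2A, MAP1LC3B and ATG4A higher and DRAM1 lower, against 42.9% of all genes. Without the control cultures numbered 2 these counts became 6 for Cisplatin in control cells (60.9% of all genes), 8 in depleted cells (71.4%), 3 for depletion in untreated cells (41.8%) and 6 under Cisplatin (55.6%). Neither this omission nor a block in control cells alters the depleted libraries. Calls for Cisplatin in depleted cells that change with them do so through the fit shared by all libraries. The comparisons share control libraries, so their values are not independent of each other. All 10 genes passed the filter on low counts.

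**Figure D1:**
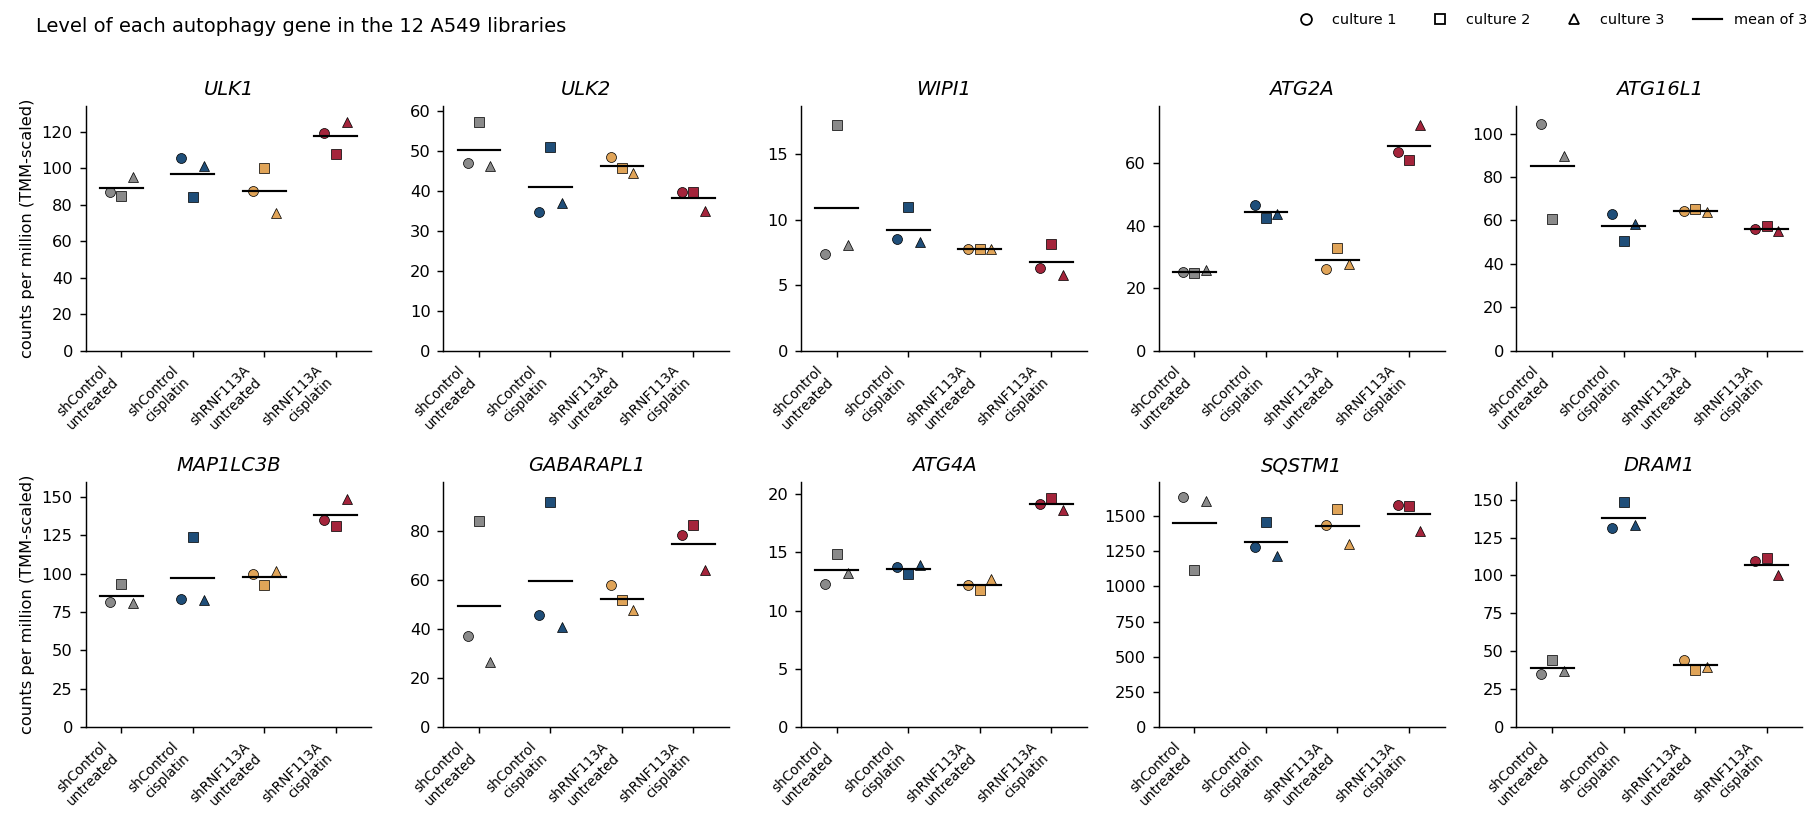
Level of each of the 10 autophagy genes in CPM (y axis, linear and starting at 0, scaled per gene) in the 4 groups (x axis). Points are single libraries with a symbol per culture number, and bars are means of 3; DRAM1 and ATG2A under Cisplatin lie above every untreated library, and the squares of control culture 2 lie apart for GABARAPL1.

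Levels can be compared between genes only per kilobase of exonic length. In untreated control cells the mean CPM per kilobase (RPKM) were 371 for SQSTM1, 28.3 for MAP1LC3B, 22.7 for ATG16L1, 15.6 for GABARAPL1, 14.4 for ULK1 and 10.1 for DRAM1. ULK2 followed with 8.0, ATG4A with 5.70, WIPI1 with 5.35 and ATG2A with 3.97 RPKM. In Cisplatin-treated depleted cells DRAM1 reached 27.9 RPKM and stood after SQSTM1 (387) and MAP1LC3B (45.8), while ATG2A reached 10.3 and lay above ULK2 (6.08) and WIPI1 (3.32). GABARAPL1 and ULK1 did not separate beyond their spread in untreated control cells (SD 9.71 and 0.90 RPKM).

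ULK1 and ULK2 encode the kinases that start autophagy, and in these cells they went in opposite directions under Cisplatin. ULK1 (chromosome 12, 132379196 to 132407712, hg19) was at 86.9, 84.7 and 95.3 CPM in untreated and 106, 84.1 and 101 CPM in Cisplatin-treated control cells. In depleted cells it was at 87.7, 99.99 and 75.6 CPM without and at 119, 108 and 125 CPM with Cisplatin. The control groups overlapped, whereas all 3 depleted libraries with Cisplatin were above every other library. The change was 0.42 log2 in depleted cells (SE 0.11, edgeR adjusted p = 0.00624) and 0.12 in control cells (SE 0.11, adjusted p = 0.376), and the difference between these changes, 0.30 (95% interval -0.01 to 0.61), did not pass (adjusted p = 0.306).

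ULK2 (chromosome 17, 19674142 to 19771249) was at 47.0, 57.2 and 46.2 CPM in untreated control cells and at 34.8, 50.9 and 36.9 CPM with Cisplatin. In depleted cells the values were 48.6, 45.6 and 44.4 CPM untreated and 39.7, 39.8 and 34.9 CPM treated. The treated libraries were lower in both kinds of cells, apart from control culture 2, which was the highest library of both control groups. Over both kinds of cells ULK2 fell by 0.29 on the log2 scale (SE 0.09, adjusted p = 0.0151). Within control cells the value was -0.30 (adjusted p = 0.0812), which became -0.38 (adjusted p = 0.00113) without the control cultures numbered 2, and within depleted cells it was -0.28 (adjusted p = 0.0957), which passed without those cultures (-0.28, adjusted p = 0.00215). With the culture number as a block in control cells, ULK2 passed in control cells (-0.31, adjusted p = 0.00274) and in depleted cells (-0.28, adjusted p = 0.00572). The depleted libraries were the same in all these fits, and their value stayed at -0.28 while the spread shared with the control libraries was estimated anew.

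WIPI1 and ATG2A act at the growing membrane, WIPI1 by binding phosphoinositides and ATG2A by moving lipids into it. WIPI1 (chromosome 17, 66417089 to 66453654) was at 7.35, 17.2 and 8.06 CPM in untreated and at 8.50, 10.9 and 8.32 CPM in treated control cells. In depleted cells it was at 7.76, 7.74 and 7.75 CPM untreated and at 6.33, 8.16 and 5.76 CPM treated. Control culture 2 was again the highest library of its groups, and the other values lay between 5.76 and 8.50 CPM. No comparison passed the test. The depletion term was -0.47 (SE 0.19, adjusted p = 0.0529) with all libraries and -0.15 (SE 0.11, adjusted p = 0.252) without the control cultures numbered 2. It passed in 7 of 19 alternatives, DESeq2 among them, with an adjusted p from 0.02 to 0.252 over all 19.

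ATG2A (chromosome 11, 64662007 to 64684722) gave the clearest pattern after DRAM1. Its level was 25.2, 24.8 and 25.8 CPM in untreated control cells and 46.8, 42.5 and 43.9 CPM in Cisplatin-treated control cells. Depleted cells held 26.2, 32.9 and 27.6 CPM untreated and 63.6, 61.0 and 72.2 CPM treated. The 4 groups did not overlap at all, in the order control untreated, depleted untreated, control treated and depleted treated. Cisplatin raised ATG2A by 0.81 log2 in control cells (1.76-fold, SE 0.10, adjusted p = 1.79e-05) and by 1.18 in depleted cells (2.27-fold, SE 0.10, adjusted p = 6.96e-07). Depletion raised it by 0.56 under Cisplatin (SE 0.10, adjusted p = 0.000665), and the value of 0.19 in untreated cells did not pass (adjusted p = 0.156). The difference between the 2 Cisplatin effects was 0.37 (95% interval 0.11 to 0.64) and did not pass over all genes (adjusted p = 0.137).

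ATG16L1 determines where ATG8 proteins are attached to the membrane. The gene (chromosome 2, 234118697 to 234204320) was at 105, 60.8 and 89.7 CPM in untreated control cells, at 63.0, 50.3 and 58.3 CPM in treated control cells, at 64.1, 65.1 and 63.9 CPM in untreated depleted cells and at 56.0, 57.2 and 55.2 CPM in treated depleted cells. Untreated control cultures 1 and 3 were thus above all other libraries, and untreated control culture 2 fell among the rest, below the highest treated library of the control cells. Cisplatin lowered ATG16L1 in control cells by 0.57 log2 (SE 0.15, adjusted p = 0.00681), whereas the value in depleted cells was -0.20 (SE 0.15, adjusted p = 0.281). The latter, from the same depleted libraries, passed with the block in control cells (-0.20, adjusted p = 0.0364) and without the control cultures numbered 2 (-0.20, adjusted p = 0.0136). Depletion in untreated cells gave -0.40 (SE 0.15, adjusted p = 0.0694). Without the control cultures numbered 2 this last value was -0.59 (SE 0.07, adjusted p = 7.67e-06) and the interaction of drug and depletion was 0.48 (adjusted p = 0.00595, against 0.37 and adjusted p = 0.347 with all libraries).

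Its transcripts also held the only retained introns of these genes with enough reads for the splicing test (further on). They were introns 7 and 13 of an isoform with 18 exons, and both passed for depletion under Cisplatin. The bases at both ends of these introns are shown because the reads across them carry that result. Each window holds 8 bases of exon and 20 of intron from the GRCh37 sequence, plus strand, 5′ to 3′, with the GT and AG that bound the intron in capitals. The windows lie at chr2:234181691-234181718, chr2:234182347-234182374, chr2:234198613-234198640 and chr2:234198874-234198901 in the order printed.

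Start of intron 7: gcagccacGTaagtaggcaggtttgggc

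End of intron 7: tatcctcccctcctctttAGtaagcgac

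Start of intron 13: caaagtctGTgaggaaattcagtctctc

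End of intron 13: gatgtttgcatttctttcAGgcataaag

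Both introns begin with GT and end with AG. Of the 18 intron bases before the AG, 17 are C or T at the end of intron 7 and 13 at the end of intron 13.

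MAP1LC3B and GABARAPL1 are ATG8 proteins, which become joined to a lipid of the autophagosome and recruit receptors there. MAP1LC3B (chromosome 16, 87417601 to 87438385) was at 81.7, 93.0 and 81.0 CPM in untreated and 83.5, 124 and 83.1 CPM in treated control cells. Depleted cells held 99.6, 92.8 and 102 CPM untreated and 135, 131 and 149 CPM treated. The treated depleted libraries were above all others, and control culture 2 under Cisplatin was the nearest to them. Cisplatin raised MAP1LC3B in depleted cells by 0.50 log2 (1.41-fold, SE 0.14, edgeR adjusted p = 0.00693), and depletion raised it under Cisplatin by 0.51 (1.43-fold, SE 0.14, adjusted p = 0.00944). In control cells the Cisplatin value was 0.18 (adjusted p = 0.267) with all libraries and 0.03 (adjusted p = 0.719) without the control cultures numbered 2. Depletion in untreated cells gave 0.20 (adjusted p = 0.294), and 0.27 (adjusted p = 0.00619) without those cultures. The interaction was 0.31 (95% interval -0.06 to 0.69, adjusted p = 0.378), and 0.46 (adjusted p = 0.00551) without those cultures. The call for depletion under Cisplatin was lost when control culture 1 or 3 under Cisplatin was left out (values down to 0.36, with an adjusted p of up to 0.0735), which leaves culture 2 as 1 of 2 libraries.

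GABARAPL1 (chromosome 12, 10365057 to 10375727) varied more between cultures than between conditions in control cells. In control cells it was at 37.0, 83.8 and 26.5 CPM untreated and at 45.7, 91.7 and 40.7 CPM treated, with culture 2 at more than 2.0 times either of the other cultures in both. In depleted cells it was at 57.7, 51.5 and 47.5 CPM untreated and at 78.0, 82.1 and 63.8 CPM treated. No comparison passed with all libraries, and the Cisplatin term was 0.39 (SE 0.25, adjusted p = 0.187). Each control culture was higher with Cisplatin than the culture of the same number without it, and each treated depleted library was above every untreated depleted library. With the culture number as a block in the control cells, the Cisplatin effect was 0.34 there (SE 0.11, adjusted p = 0.0103) and 0.52 in depleted cells (adjusted p = 0.000461), and with the control cultures numbered 2 left out it was 0.44 (adjusted p = 0.0134) and 0.51 (adjusted p = 0.000757). Without the control cultures numbered 2, depletion gave 0.72 in untreated cells (adjusted p = 0.000418) and 0.79 under Cisplatin (adjusted p = 0.000113), so the depletion result of GABARAPL1 turned on those 2 libraries. Reads of its near-identical copy GABARAPL3, and of MAP1LC3B2 for MAP1LC3B, are counted only where they map to 1 place, and their part in these values was not tested.

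ATG4A, a protease that trims ATG8 proteins, was the 1 gene of the 10 that passed the interaction test with all libraries. A gene that did not pass is not thereby shown to respond alike in both kinds of cells. The gene (chromosome X, 107334898 to 107397901) was at 12.2, 14.9 and 13.2 CPM in untreated and 13.8, 13.1 and 13.9 CPM in treated control cells. In untreated depleted cells it was at 12.2, 11.8 and 12.7 CPM, and in treated depleted cells at 19.1, 19.6 and 18.7 CPM. Both control groups overlapped, as did the untreated groups, the treated control libraries were above the untreated depleted ones, and the treated depleted libraries were all above the other 9. Cisplatin raised ATG4A by 0.65 log2 in depleted cells (1.57-fold, SE 0.09, adjusted p = 6.29e-05) and by a value near 0 in control cells (0.02, SE 0.09, adjusted p = 0.897).

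The interaction for ATG4A was 0.63 (SE 0.13, 95% interval 0.38 to 0.88, edgeR adjusted p = 0.0217), the only call among the 10 genes, against 4.25% of all genes. It passed in 14 of 20 alternatives, among them without the control cultures numbered 2 (0.53, adjusted p = 0.0104) and with the block in control cells (0.63, adjusted p = 0.0056). It failed when control culture 1 or 3 under Cisplatin, untreated depleted culture 1 or 2 or treated depleted culture 1 or 2 was left out, with an adjusted p of up to 0.0742. With the control cultures numbered 2 left out, 5 of the 10 genes passed the interaction test (ATG4A, SQSTM1, MAP1LC3B and ATG16L1 upward and DRAM1 downward), against 17% of all genes. With the block in control cells 3 passed (ATG4A, ATG16L1 and DRAM1), against 16.3% of all genes.

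SQSTM1, the receptor that carries ubiquitinated cargo, had the highest RPKM of the 10 genes and did not move with either factor when all libraries were used. Its level (chromosome 5, 179233388 to 179265078) was 1633, 1120 and 1606 CPM in untreated control cells, 1277, 1461 and 1218 CPM in treated control cells, 1438, 1550 and 1305 CPM in untreated depleted cells and 1577, 1573 and 1395 CPM in treated depleted cells. All 4 groups overlapped, and control culture 2 was the lowest untreated and the highest treated control library. The Cisplatin value in control cells was -0.14 (SE 0.14, 95% interval -0.40 to 0.13, adjusted p = 0.401) with all libraries and -0.38 (adjusted p = 0.00173) without the control cultures numbered 2. Depletion under Cisplatin gave 0.20 (adjusted p = 0.249), and 0.28 (adjusted p = 0.00937) without those cultures, where the interaction was 0.46 (adjusted p = 0.0137, against 0.22 and adjusted p = 0.55 with all libraries).

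DRAM1 (chromosome 12, 102271129 to 102405908) showed the largest response to Cisplatin of the 10 genes. Its level was 35.0, 44.5 and 36.9 CPM in untreated control cells and 131, 148 and 133 CPM in treated ones. In depleted cells it was 44.2, 37.8 and 39.9 CPM untreated and 109.6, 111 and 100.3 CPM treated. Every treated library was above every untreated library, and every treated depleted library was below every treated control library. Cisplatin raised DRAM1 3.55-fold in control cells (1.83 log2, SE 0.10, adjusted p = 2.95e-08) and 2.63-fold in depleted cells (1.40 log2, SE 0.10, adjusted p = 2.43e-07). Depletion lowered it under Cisplatin by 0.36 log2 (SE 0.10, adjusted p = 0.0106). The difference between the Cisplatin effects was -0.43 (95% interval -0.70 to -0.16, adjusted p = 0.101), and it passed with the block in control cells (-0.43, adjusted p = 0.0129) and without the control cultures numbered 2 (-0.48, adjusted p = 0.00723).

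**Figure D2:**
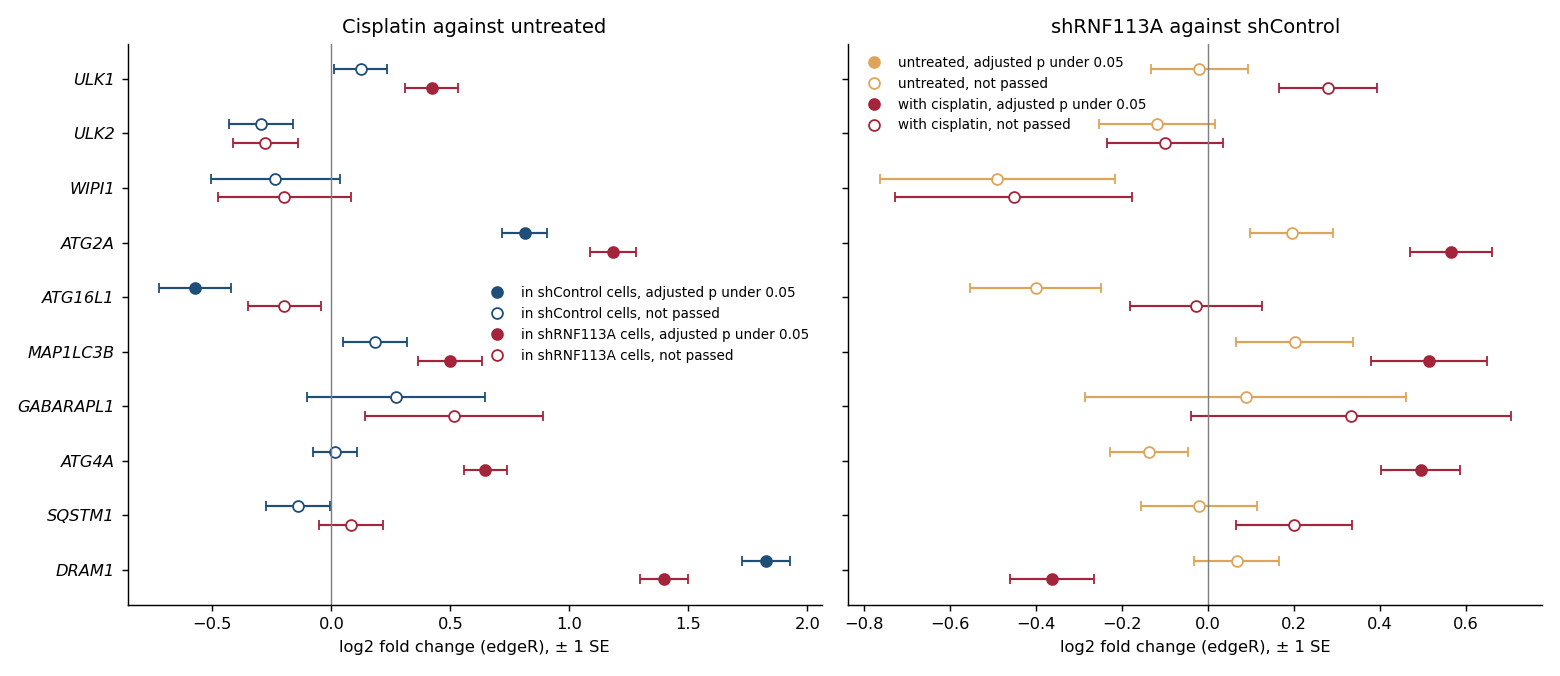
Log2 fold change of the 10 genes (x axis, with 1 SE as bars) for Cisplatin against untreated, left, and shRNF113A against shControl, right, each in both conditions. Filled points passed an edgeR adjusted p under 0.05; under Cisplatin ATG2A, MAP1LC3B and ATG4A lie to the right and DRAM1 to the left of 0 in the depletion panel.

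The share of reads from introns was then compared, since RNF113A belongs to the spliceosome. Intronic reads were those of a gene not contained in its exons. In untreated control cells they made up 3.42% of the reads of SQSTM1, 0.753% of MAP1LC3B, 3.30% of DRAM1, 3.25% of GABARAPL1 and 5.67% of ATG16L1 on average. The other means were 7.21% for ULK1, 6.05% for ULK2, 6.02% for ATG2A, 6.45% for ATG4A and 19.3% for WIPI1. The median over the 11018 genes kept was 6.08%.

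Depletion in untreated cells raised the intronic relative to the exonic reads of 5 genes, ATG2A (0.89 log2, edgeR adjusted p = 0.0141), ATG16L1 (0.84, adjusted p = 0.0186), ULK1 (0.77, adjusted p = 0.00948), ULK2 (0.69, adjusted p = 0.0347) and SQSTM1 (0.54, adjusted p = 0.0219), against 29.8% of all genes. None of the 5 passed when untreated control culture 2 or untreated depleted culture 2 alone was left out, where 829 and 412 of 11018 genes passed. Under Cisplatin it raised those of all 10, against 84% of all genes, from 0.60 for GABARAPL1 (adjusted p = 0.033) to 1.29 for ATG16L1 (adjusted p = 0.00011). The median of the 10 genes was 0.57 in untreated cells and 0.97 under Cisplatin, beside 0.46 and 0.96 over all genes, so that the 10 genes moved about as the transcriptome did.

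ATG16L1 had 6.16%, 5.59% and 5.25% intronic reads in untreated and 5.74%, 4.13% and 10.1% in treated control cells. Depleted cells had 9.07%, 11.1% and 9.03% untreated and 14.3%, 13.4% and 15.6% treated. Treated control culture 3 lay within the range of the depleted cells, and it had the highest share of the 6 control libraries for all 10 genes. The same held for its median over all genes kept, at 9.52% against 5.56% to 7.32% in the other control libraries. ULK1 went from 7.68%, 6.17% and 7.76% in untreated control cells to 11.1%, 12.5% and 11.2% in untreated depleted cells, and from 6.98%, 6.24% and 8.86% to 13.7%, 15.3% and 16.2% under Cisplatin. For ULK1 no depleted library overlapped a control library.

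In the control cells, Cisplatin raised the intronic share of 2 genes, DRAM1 (3.65%, 2.60% and 3.66% to 5.29%, 4.40% and 6.86%, 0.77 log2, adjusted p = 0.0239) and ATG4A (7.46%, 4.98% and 6.91% to 8.56%, 8.59% and 12.9%, 0.71 log2, adjusted p = 0.0468), against 19.2% of all genes. In the depleted cells it did so for 7 genes, against 67.4% of all genes. These were DRAM1 (1.24), MAP1LC3B (1.10), ATG4A (0.92), ULK2 (0.71), ATG16L1 (0.65), SQSTM1 (0.52) and ULK1 (0.43 log2). MAP1LC3B started low there, at 32, 35 and 21 intronic reads (0.845%, 0.984% and 0.633%), and reached 89, 74 and 59 (2.09%, 1.72% and 1.47%). The interaction was called for 0 of the 10 genes by edgeR, with 0 at an unadjusted p under 0.05 and 0 by the limma fit, against 3.63% of all genes. When treated control culture 3 was left out, edgeR called 4, and 5301 of all 11018 genes.

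The share of read pairs that STAR assigned to no gene moved with the same groups, at 4.55% to 4.90% in untreated control cells and 9.05% to 9.62% in treated depleted cells. STAR assigns pairs by exons, so pairs within introns can be part of this share, and it is not a separate measure. The overlap of both was not tested. When the control cultures numbered 2 were left out, depletion raised the intronic reads of 5 genes in untreated cells (33.3% of all genes called) and of 9 under Cisplatin (78.7%), GABARAPL1 no longer passing at 0.34 (adjusted p = 0.149). For Cisplatin the numbers were then 3 genes with shControl (34.7%) and 9 with shRNF113A (75.3%).

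**Figure D3:**
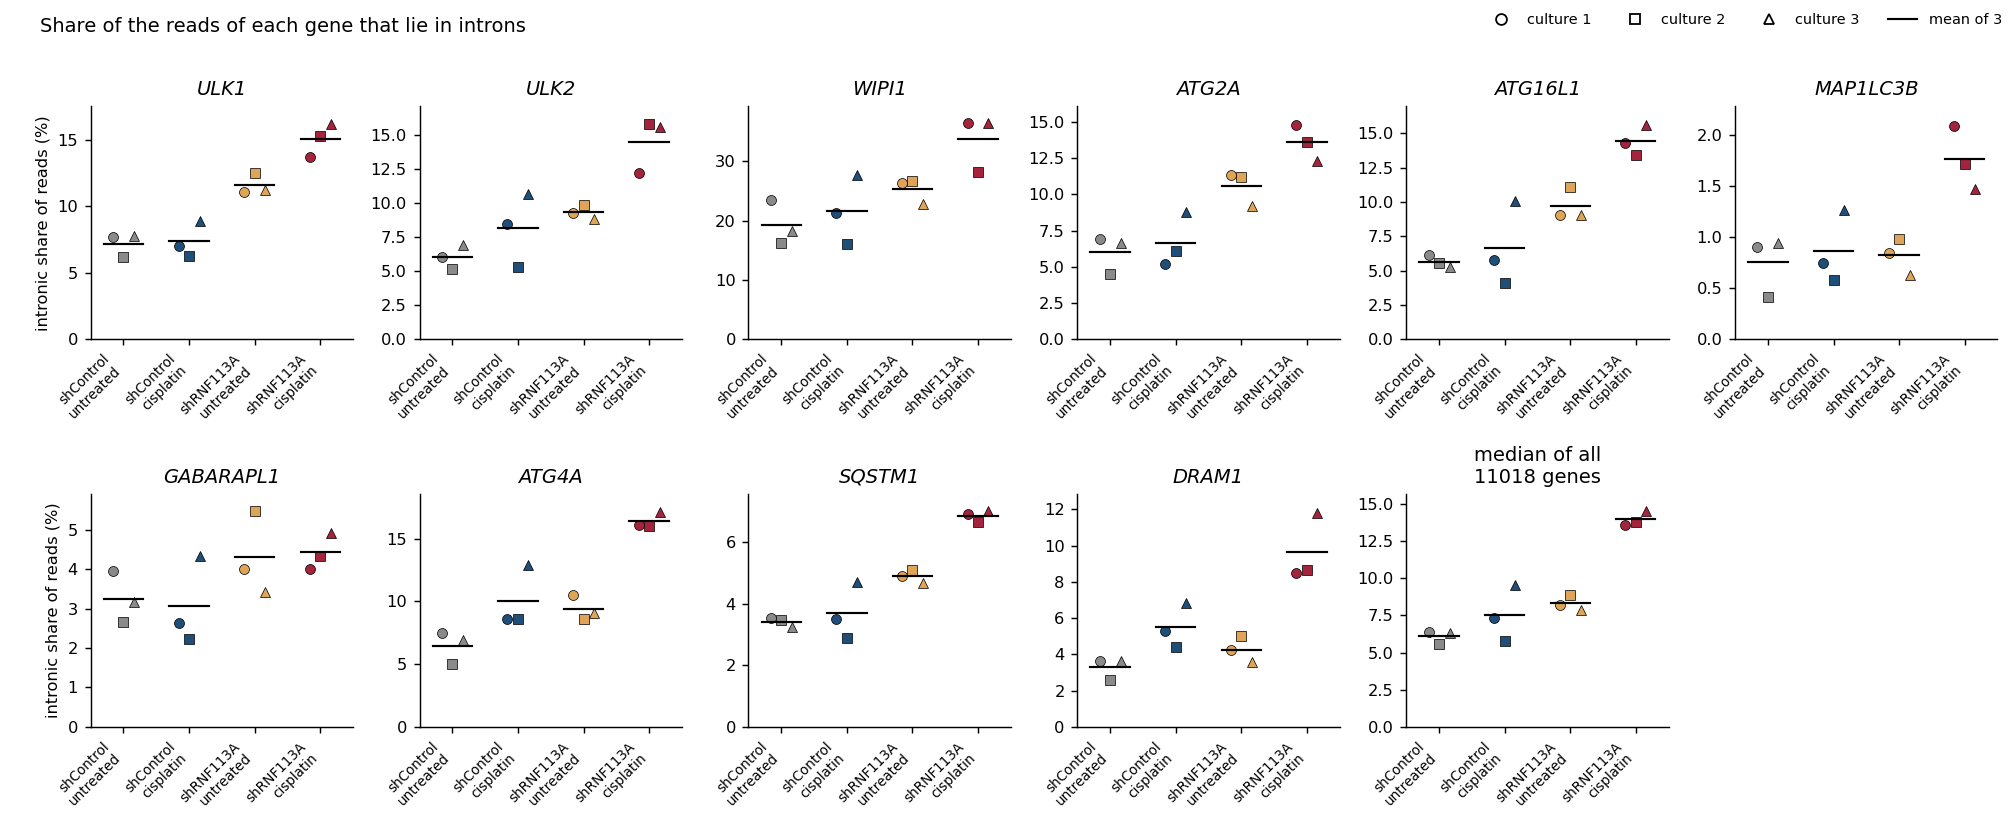
Percentage of the reads of each gene that lie in introns (y axis, linear and starting at 0, scaled per gene) in the 4 groups, with the median of all 11018 genes in the last panel. Points are libraries and bars are means of 3; the treated depleted libraries are the highest for every gene but GABARAPL1 and for the transcriptome median, whose group mean goes from 6.08% in untreated control to 14% in treated depleted cells.

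Splicing events of the 10 genes were compared on the reads that include or skip each exon or intron. The tables held 407 rows of these genes over 5 kinds of event and 4 comparisons, of which 371 had enough reads. At an edgeR adjusted p under 0.05, 4 rows passed, against 1.6% of the rows of all genes, and 0 of them differed by at least 20 percentage points in inclusion, against 0.146%. At an unadjusted p under 0.05 there were 23. Both retained introns were in ATG16L1 and both other events in SQSTM1. All 8 rows of retained introns with enough reads were of ATG16L1, so no other gene could pass for that kind of event. Leaving out the library listed first in the second group left 0 of the 4. The order of the libraries inside these tables is not named, so they carry no culture number here.

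Intron 7 of ATG16L1 (chromosome 2, 234181699 to 234182366, 668 bases) had retention levels of 1.71%, 1.41% and 1.18% in Cisplatin-treated control cells and of 9.29%, 4.64% and 8.24% in treated depleted cells. Such a level sets retained reads against reads that join exons 7 and 8, scaled by length, and is not a share of all transcripts. Retained reads numbered 10, 5 and 7 in treated control and 20, 12 and 12 in treated depleted cells. Spliced reads numbered 56, 34 and 57 against 19, 24 and 13. The groups did not overlap, and the difference passed (2.38 log2 in the ratio of retained to spliced reads, SE 0.66, edgeR adjusted p = 0.00494), against 26% of the retained introns tested in that comparison. Only 25 to 66 reads per library lay behind these levels. In untreated cells the levels were 2.12%, 2.25% and 3.00% with shControl and 1.71%, 4.89% and 4.75% with shRNF113A, which overlapped and did not pass (adjusted p = 0.416).

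For intron 13 (234198621 to 234198893, 273 bases) the levels under Cisplatin were 4.96%, 4.05% and 4.41% in control and 8.54%, 14.9% and 6.61% in depleted cells (1.196 log2, SE 0.47, adjusted p = 0.0462, 79 to 138 reads). In untreated cells they were 6.86%, 7.75% and 2.99% and then 8.15%, 12.3% and 6.35% (adjusted p = 0.165). The treated groups were apart and the untreated groups overlapped. The levels of both introns were thus at most 14.9% in every library.

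Exon 8 of ATG16L1 (234182367 to 234182423, 57 nt) follows intron 7 and is present in some isoforms only. Its inclusion level, which sets reads with the exon against reads that skip it, was 61.0%, 38.0% and 55.3% in untreated and 45.6%, 37.6% and 39.7% in treated control cells. Inclusion was 42.6%, 43.8% and 41.6% in untreated and 25.4%, 31.6% and 20.2% in treated depleted cells. The treated depleted libraries were below all 9 others, but no comparison passed (adjusted p = 0.539 for depletion under Cisplatin and 0.216 for Cisplatin in depleted cells). The reads that join exons 7 and 8 count both as splicing of intron 7 and as inclusion of exon 8, so these values share reads. Transcripts that skip exon 8 hold no such reads, so lower inclusion of exon 8 leaves fewer spliced reads for intron 7. The part of this in the intron 7 result was not tested. This exon and an exon of DRAM1 were chosen after their values were seen. The latter (chromosome 12, 102307952 to 102308010, 59 nt) had inclusion levels of 74.2%, 80.2% and 82.2% in untreated control and 60.6%, 63.5% and 60.3% in untreated depleted cells (adjusted p = 0.699). Under Cisplatin the means were 74.5% and 74.2%.

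**Figure D4:**
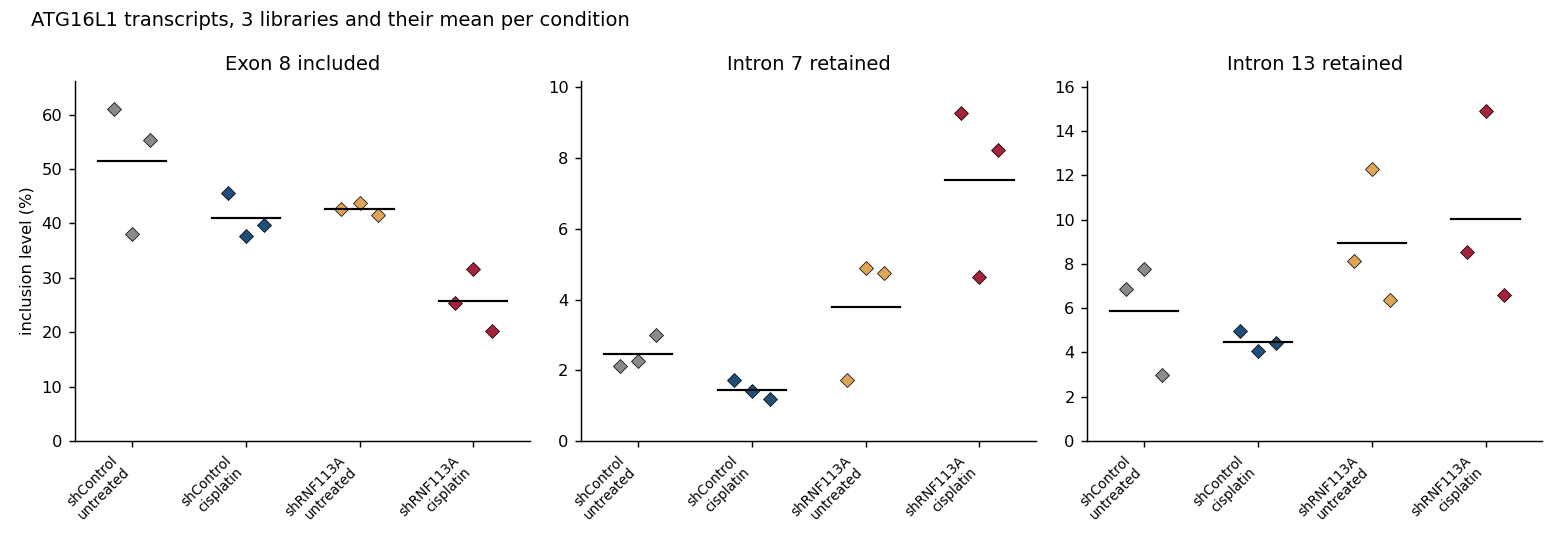
Inclusion of exon 8 and retention of introns 7 and 13 of ATG16L1 as inclusion level in percent (y axis, linear and starting at 0, scaled per panel) in the 4 groups. Diamonds are single libraries and bars are means of 3; in treated depleted cells exon 8 averaged 25.7%, intron 7 averaged 7.39% and intron 13 averaged 10.0%.

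Of the events in SQSTM1, a skipped exon of 157 nt (chromosome 5, 179248551 to 179248707) had mean inclusion levels of 0.0357% in treated control and 0.281% in treated depleted cells. These came from 0, 1 and 4 against 10, 14 and 7 inclusion reads (adjusted p = 0.0307), against 0.721% of skipped exons tested. In a choice between alternative exons (179238574 to 179238682 or 179249958 to 179250053), the level sets reads of the first against reads of the second, scaled by length. It was 4.61%, 5.94% and 4.44% in untreated control and 3.40%, 3.61% and 3.23% in untreated depleted cells (adjusted p = 0.0385), against 0.431% of such pairs. Both differences were below 2.0 percentage points, and the other 21 of the 23 rows tested for SQSTM1 did not pass.

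The other genes of the pathway were taken from 3 lists, namely 55 genes of the autophagy machinery, 34 regulators and 55 lysosomal genes, all of which were tested. Of the machinery, 26 were higher and 15 lower under Cisplatin (median log2 change 0.10), and 7 were higher and 10 lower with depletion (median -0.06), beside medians of 0.03 and -0.002 over all genes. Of all genes, 34.8% were higher and 32.1% lower for Cisplatin and 23.5% and 24% for depletion, and the counts of the lists that follow are to be read against these shares. ATG10, an enzyme that conjugates ATG12 to ATG5, fell by 2.75 on the log2 scale under Cisplatin (from 19.9 ± 3.10 to 3.56 ± 0.41 CPM in control cells, SD, n = 3, adjusted p = 1.1e-09 in edgeR) and by 0.52 with depletion (adjusted p = 0.00478). UVRAG, a subunit of the lipid kinase complex, fell by 1.54 with Cisplatin (29.2 ± 0.86 to 12.1 ± 1.70 CPM, adjusted p = 9.93e-08). MAP1LC3A, a relative of MAP1LC3B, rose by 2.28 (1.66 ± 0.25 to 6.41 ± 1.03 CPM, adjusted p = 4.85e-08).

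ATG9B, which encodes a membrane protein that supplies lipid vesicles, rose with both factors but from very few reads. It had 2 to 4 reads per library in untreated control cells, 16 to 31 with Cisplatin, 10 to 13 with depletion and 78 to 98 with both. With depletion, VAMP8, a SNARE protein of fusion with lysosomes, rose by 1.046 log2 (19.3 ± 4.05 to 46.1 ± 3.34 CPM in untreated cells, adjusted p = 9.08e-06). CALCOCO2, a cargo receptor also named NDP52, fell by 0.45 (94.6 ± 0.30 to 66.5 ± 1.16 CPM, adjusted p = 9.03e-06). By edgeR 0 genes of the machinery passed the interaction test with all libraries (14 at an unadjusted p under 0.05, and 2 higher and 4 lower by DESeq2), and 7 passed upward and 6 downward without the control cultures numbered 2, where 17% of all genes passed.

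Among the 34 regulators, 14 were higher and 10 lower under Cisplatin (median 0.02), against 34.8% and 32.1% of all genes. The sestrins SESN1 and SESN2, stress-induced inhibitors of the kinase complex mTORC1, had the largest rises. SESN1 went from 13.2 ± 1.87 to 109.5 ± 2.39 CPM in control cells and rose by 2.87 log2 over both kinds of cells (adjusted p = 4.36e-11), and SESN2 went from 13.4 ± 4.19 to 91.8 ± 2.09 CPM and rose by 2.75 (adjusted p = 5.82e-10). RPTOR and DEPTOR, subunits of mTORC1 of which DEPTOR inhibits it, had the largest falls. RPTOR fell by 2.68 (70.0 ± 4.71 to 12.3 ± 1.86 CPM, adjusted p = 5.45e-10) and DEPTOR fell by 2.70 (3.93 ± 0.15 to 0.71 ± 0.20 CPM, adjusted p = 4.06e-08).

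With depletion, 7 regulators were higher and 13 lower (median -0.05), against 23.5% and 24% of all genes. FOXO1, a transcription factor, rose by 0.81 (7.33 ± 1.17 to 14.4 ± 0.52 CPM in untreated cells, adjusted p = 8.22e-05) and PRKAB2, a subunit of the energy sensor AMPK, by 0.42 (adjusted p = 0.0107), with 0.10 in untreated cells (adjusted p = 0.572) and 0.74 under Cisplatin (adjusted p = 0.000399). SESN3 fell by 0.80 (adjusted p = 0.0013) and TFEB, a transcription factor of lysosomal genes, by 0.75 (adjusted p = 0.00202). For SESN3, TFEB and PRKAB2 the libraries of both kinds of cells overlapped.

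Of 55 lysosomal genes, 19 were higher and 18 lower under Cisplatin (median -0.07), against 34.8% and 32.1% of all genes, and 20 were higher and 6 lower with depletion (median 0.14), against 23.5% and 24%. Leaving out the control cultures numbered 2, these counts were 23 and 22 for Cisplatin, where 71.9% of all genes passed, and 33 and 5 for depletion, where 54.5% passed. The proton pump that acidifies the lysosome had 8 genes higher and 1 lower of 14 under Cisplatin, against 34.8% and 32.1% of all genes. The other roles did not lean that way, with 4 higher and 5 lower of 13 membrane proteins, 1 and 2 of 9 proteases and 6 and 10 of 19 hydrolases. Under Cisplatin, the hydrolases SGSH and SMPD1 rose by 1.15 (adjusted p = 8.4e-07) and 1.054 (adjusted p = 5.66e-05), and the membrane proteins SLC17A5, a sialic acid transporter, and TPCN1, an ion channel, fell by 1.25 (adjusted p = 1.61e-05) and 1.09 (adjusted p = 1.35e-07). With depletion, the proteases CTSL and TPP1 rose by 0.76 (194 ± 20.0 to 331 ± 22.9 CPM in untreated cells, adjusted p = 3.97e-05) and 0.62 (adjusted p = 0.000782), the hydrolase IDS fell by 0.67 (344 ± 25.5 to 200 ± 5.80 CPM, adjusted p = 1.59e-05) and the protease CTSS by 0.37 (adjusted p = 0.0278), the last of which did not pass without the control cultures numbered 2 (-0.18, adjusted p = 0.0741).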

How the data were processed

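Poly(A) RNA of the 12 libraries was sequenced on a NextSeq in pairs of 76 bases per the study's methods. The authors removed ribosomal, transfer and mitochondrial reads, aligned with STAR 2.5.2b to hg19, counted exonic and genic reads with HTSeq on Gencode 19 protein-coding genes and listed splicing events with rMATS. The deposited values used here are raw counts, namely the STAR counts of the gene strand, the HTSeq counts and the rMATS inclusion and skipping counts. STAR counts only reads that map to 1 place, and overlapping genes of the opposite strand (MGAT4B and C5orf45 at SQSTM1, FBXO31 at MAP1LC3B, ARSG at WIPI1, COL4A6 at ATG4A, NDUFA1 at RNF113A) are kept apart by strand. The authors' fold changes, p-values and inclusion differences were not used.

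Gene counts were scaled by TMM, filtered with filterByExpr and tested with the quasi-likelihood test of edgeR 4.0.16 in R 4.3.3, as drug plus depletion, and with their interaction for that term and for effects within a condition. All 12 libraries shared 1 estimate of the spread, and p-values were adjusted by Benjamini and Hochberg over 15352 genes. CPM values use the TMM-scaled library size. Intronic reads were genic minus exonic counts and were tested against exonic counts with a term per library over 11018 genes with a mean of at least 10 intronic reads. Splicing was tested in the same way in each of 5 kinds of event and 4 comparisons, on events with at least 10 reads per library. Each test was run on simulated data first. There the interaction test recovered 6.12% of changes of 0.5 log2 and 46% of changes of 1 log2, and the test of the Cisplatin term 59.6% and 80.4%. For depletion under Cisplatin, the intronic test recovered 4% of changes of 0.5 log2 and 48% of 1 log2. The retained intron test recovered 7% of changes of 1 log2 and 60% of 2 log2. DESeq2 1.42.0, limma 3.58.1, other scaling and filters, unstranded counts, replicate blocks and left-out libraries were the alternatives.

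Untreated and treated control cultures of equal number had correlated deviations from their group means (0.628, 0.728 and 0.465 for cultures 1, 2 and 3, over 9595 genes). For depleted cultures the correlations were 0.396, -0.084 and 0.289. An untreated culture matched its own number best for control cultures 1 and 2 and for depleted cultures 1 and 3. The control cultures numbered 2 stood apart in both treatments, so these correlations cannot decide whether numbers pair the other control cultures. A block for the culture number within control cells, and the omission of the control cultures numbered 2, were added after the data were seen. The genes and the 3 further lists were chosen with earlier results of these data known. All 10 genes are named. From each further list the 2 largest rises and falls of each factor and the 2 largest interactions at an adjusted p under 0.05 are named, as is PRKAB2, whose interaction was added after its value was seen. Of splicing events, those that passed are named, with an exon of ATG16L1 and an exon of DRAM1 that were chosen after their values were seen. Replicates are biological per the study, and p-values cover the spread between these cultures only. Some splicing levels rest on fewer than 30 reads. Positions are those of the deposited Gencode 19 annotation, and exons of ATG16L1 are numbered on an 18-exon transcript of Gencode 44 lifted to GRCh37. Splice-site windows were read from the GRCh37 sequence given with the data, which holds the same coordinates as hg19.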

Additional observations from a re-analysis of the deposited data

Results flagged for a closer look

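Each of the following genes responded differently to Cisplatin in depleted than in control cells by the edgeR interaction test over all 15352 genes, and the values are log2 differences between both responses. The value of ATG4A was 0.631 (adjusted p = 0.0217). TRIB3, a pseudokinase induced by stress, had -1.367 (adjusted p = 0.00979), with 0.58 in control and -0.78 in depleted cells, and passed in 20 of 20 alternatives. DDIT4, an inhibitor of mTORC1, had -0.759 (adjusted p = 0.0243), with -0.51 in control and -1.27 in depleted cells, and passed in 15 of 20. SMPD1, the lysosomal sphingomyelinase, had 0.927 (adjusted p = 0.022), with 0.59 in control and 1.52 in depleted cells, and passed in 15 of 20. GLA, a lysosomal galactosidase, had 0.453 (adjusted p = 0.0454), with -0.38 in control and 0.08 in depleted cells, and passed in 7 of 20. PRKAB2 had 0.643 (adjusted p = 0.0465), with 1.32 in control and 1.963 in depleted cells, and passed in 7 of 20. Of all genes tested, 4.25% passed this test.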

How the results depend on the processing

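Of the 10 genes, the number that passed changed by more than 1.5 times under these settings. For the interaction of drug and depletion it was 1, against 2 with DESeq2, 3 with the block in control cells and 5 without the control cultures numbered 2. For the depletion term it was 2, against 4 without those cultures. For Cisplatin in control cells it was 3, against 5 with that block and 6 without those cultures, and in depleted cells 5, against 8 and 8. For depletion in untreated cells it was 0, against 1 with DESeq2 and 3 without those cultures. For intronic reads, limma gave 3 rather than 5 for depletion in untreated cells, and for Cisplatin in control cells limma gave 1 and no minimum of intronic reads gave 1 rather than 2.

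Leaving out each library in turn gave 7 to 8 genes for the Cisplatin term, 2 to 4 for the depletion term and 0 to 3 for the interaction. Within conditions it gave 3 to 5 and 5 to 6 for Cisplatin in control and depleted cells, and 0 to 1 and 3 to 5 for depletion without and with Cisplatin. The higher counts for the depletion term, the interaction, Cisplatin in control cells and depletion in untreated cells came without untreated control culture 2 (4, 3, 5 and 1). For intronic reads the ranges were 0 to 7 (5 with all libraries) and 9 to 10 for depletion without and with Cisplatin, 0 to 4 (2 with all libraries) and 5 to 9 for Cisplatin in control and depleted cells and 0 to 4 for the interaction. Depletion in untreated cells gave 0 without untreated control culture 2 or untreated depleted culture 2, 2 without untreated depleted culture 1 and 3 without untreated control culture 3. Cisplatin in control cells gave 0 without untreated control culture 2 or treated control culture 1 or 3, and 4 without treated control culture 2. For splicing the ranges were 0 to 3 of 4 and 0 to 0 with the limit on inclusion. The cause was not tested.

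The replicate block over all libraries gave 7, 3, 1, 4, 6, 0 and 4 genes for the Cisplatin term, the depletion term, the interaction, Cisplatin in control and in depleted cells and depletion without and with Cisplatin. Beyond the values given above, the block in control cells added ULK2 for intronic reads under Cisplatin in control cells and WIPI1 and ATG2A in depleted cells. No paired analysis was possible for splicing because the tables do not name their libraries. Library size in place of TMM moved the median of all genes from 0.028 to 0.125 for the Cisplatin term, lost ULK2 from the Cisplatin term and added ULK1 to depletion under Cisplatin. Of 2250 single values compared, 62 lost and 75 gained a call, none changed sign while past the threshold, and 61 changed sign while past it under neither setting.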

Other observations

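The counts for the depletion term by role were as follows, beside 23.5% of all genes higher and 24% lower, and differences between roles were not tested. Of 8 transcription factors that control autophagy genes, 2 were higher and 5 lower at an edgeR adjusted p under 0.05. Among lysosomal genes, 5 of 9 proteases were higher and 1 lower, 6 of 13 membrane proteins were higher and 2 lower, 4 of 19 other hydrolases were higher and 1 lower, and 5 of 14 proton pump subunits were higher and 2 lower. Of 12 cargo receptors 0 were higher and 3 lower. Under Cisplatin, 6 of these 12 receptors were higher and 2 lower, and of the 19 hydrolases 6 were higher and 10 lower, beside 34.8% and 32.1% of all genes.

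Genes that span more of the genome tended to have lower values for both terms. Spearman's rho between gene span and the log2 change was -0.42 for Cisplatin and -0.29 for depletion across 13470 genes, -0.30 and -0.39 across 152 genes of all lists, and -0.33 and -0.73 across the 10 autophagy genes. These describe genes of the same libraries, which are not independent of each other. ATG10 (305 kb), UVRAG (328 kb), RPTOR (422 kb) and DEPTOR (177 kb), with the largest falls under Cisplatin in their lists, lie well above the median span of 32.8 kb, whereas SESN1 (108 kb) and DRAM1 (135 kb) are also long and rose.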
